A study of Mus musculus with 12 samples.

Results

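Brain endothelial cells line the vessels of the brain and form the blood-brain barrier, and 10 genes that these cells are known for were followed here in the mouse forebrain: Cldn5, Cdh5 and Pecam1 (cell junctions and adhesion), Flt1, Kdr and Tek (growth factor receptors), and Slc2a1, Mfsd2a, Slco1a4 and Abcb1a (transporters). They were taken as a list of names, chosen with earlier results of these data known, and all 10 were present among the 19268 genes of the deposited expression table. The tissue was forebrain without the olfactory bulb, taken from C57BL/6J males either as juveniles on postnatal day 25 (P25) or as adults on postnatal day 60 (P60). Knock-out mice (KO) lacked internal exons of both copies of Shank3, which encodes a scaffold of excitatory synapses, and were compared with wild-type mice (WT), which carried no such allele. Age and genotype gave 4 groups (P25-KO and P25-WT, P60-KO and P60-WT) with 3 libraries each, and the study counted each library as 1 mouse. Values are normalized counts, that is, estimated read counts that the authors had divided by factors for gene length and library size, and they are not whole reads. Depth was therefore unknown, and no counting interval is given.

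The endothelium of the brain differs from that of most other organs. Its cells are sealed to each other by tight junctions, in which claudin-5, the product of Cldn5, is the most abundant claudin, and they carry few transcytotic vesicles. Nutrients cross by dedicated carriers, and foreign compounds are pumped back into the blood by efflux transporters. The state is maintained by Wnt ligands from neural cells acting on beta-catenin in the endothelium, and vessel growth is driven by VEGF (vascular endothelial growth factor) and angiopoietins through receptor tyrosine kinases. Each of the 10 genes is strongly expressed in endothelium, but Slc2a1 is also used by astrocytes and other cells. The samples were whole forebrain, in which endothelial cells are a small share, so fewer endothelial cells and less RNA per endothelial cell cannot be told apart.

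Shank3, the targeted gene, was at 4891, 4901 and 5729 normalized counts in the P25-KO libraries and at 10400, 11680 and 10250 in the P25-WT libraries, and at 5186, 4535 and 5021 against 10310, 8936 and 10140 at P60. Every KO library was below every WT library, as the labels state. The markers of 10 cell types (endothelium, pericyte, smooth muscle, fibroblast, astrocyte, microglia, neuron, oligodendrocyte, choroid plexus and red blood cell) were above 0 in all 12 libraries, the neuronal list with summed values from 181800 to 193600. The red blood cell markers (hemoglobin genes and Alas2) summed to 20500 to 42980 in the P25 libraries and to 5894 to 7305 in the P60 libraries, highest in P25-KO replicate 3 and P25-WT replicate 2. In some libraries most of the endothelial genes lay at the same end of their group. P60-KO replicate 2 was the lowest of its group for all 10 of them and the lowest of all 12 libraries for 6, whereas over all 17594 genes tested it was the lowest of its group for 33.7%. P60-WT replicate 3 was the highest of its group for 8 of the 10 (32.5% of all genes) and the highest of all 12 libraries for 4. In that library 79.2% of the 24 other endothelial identity genes and 5 of 8 astrocyte genes were the highest of their group. All 8 microglia genes and 7 of 8 oligodendrocyte genes were the lowest there. P60-KO replicate 3 was the highest of its group for 9 of the 10 (35.4%), and P25-KO replicate 1 the lowest of its group for 8 (31%). P25-KO replicate 2 was the highest of its group for 6 (34.1%). The genotype medians and the directions that rest on these libraries are given with and without them, except for P25-KO replicate 2, without which no median is given.

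The stretch of 250 bases before the start annotated in RefSeq is shown for 3 of the genes, because Slc2a1 and Mfsd2a are the pair that was lower at P60 and Flt1 is a gene that was higher at P60 with a promoter at the annotated gene start. The sequences are from RefSeq on GRCm38.p6, which held windows for 8 of the 10 genes (not for Pecam1 and Cdh5), and each is read 5′ to 3′ along the gene's strand. Capitals mark ACGTG (the core of a hypoxia response element), AGGAAG (a core for ETS factors, which are active in endothelium) and TATAAA, the sequence of the TATA box, each searched on both strands.
Slc2a1: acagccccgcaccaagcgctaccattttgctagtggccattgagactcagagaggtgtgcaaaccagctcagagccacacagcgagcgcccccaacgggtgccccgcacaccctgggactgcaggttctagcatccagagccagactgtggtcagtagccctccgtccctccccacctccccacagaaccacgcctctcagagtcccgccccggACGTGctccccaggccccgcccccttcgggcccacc
Mfsd2a: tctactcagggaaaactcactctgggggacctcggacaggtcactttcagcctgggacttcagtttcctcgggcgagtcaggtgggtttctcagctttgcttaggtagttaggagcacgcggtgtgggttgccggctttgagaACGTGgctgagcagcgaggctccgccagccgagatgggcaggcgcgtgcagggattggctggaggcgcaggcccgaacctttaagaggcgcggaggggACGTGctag
Flt1: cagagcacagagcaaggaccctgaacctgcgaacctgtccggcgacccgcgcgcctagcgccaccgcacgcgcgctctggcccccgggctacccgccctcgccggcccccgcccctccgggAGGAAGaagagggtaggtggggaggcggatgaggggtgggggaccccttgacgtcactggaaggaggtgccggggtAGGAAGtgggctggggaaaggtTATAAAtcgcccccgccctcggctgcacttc
The Slc2a1 window lies at chr4:119108495-119108744 on the plus strand, the Mfsd2a window at chr4:122961189-122961438 on the minus strand and the Flt1 window at chr5:147726012-147726261 on the minus strand. Among the 8 windows, ACGTG was found only in those of Slc2a1 (1 match) and Mfsd2a (2 matches), a motif held by 16.6% of the 32851 windows of the same length in the RefSeq table. AGGAAG was found in the windows of Flt1, Slco1a4 and Abcb1a (29.5% of all windows), TATAAA in that of Flt1 (12.4%), and GGGCGG, the Sp1 box, not marked, in those of Cldn5, Flt1, Kdr and Slc2a1 (32.7%). The motifs were chosen after the sequences had been seen, and a match is a description of letters, not a bound site. The Abcb1a window is not shown because its RefSeq start lies 92986 bases upstream of the gene start in GENCODE release M21. For Slc2a1 the GENCODE gene start stands at -34 bases from the RefSeq start. The end of the Slc2a1 window therefore lies inside the GENCODE gene, and its ACGTG match spans that gene start.

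Levels between genes were compared only per length, as the mean normalized count over the 12 libraries per kilobase of the principal transcript. Slc2a1, the glucose carrier GLUT1, stood highest at 1135 per kilobase, followed by Cldn5 at 656.8 and Mfsd2a at 425.6. Slco1a4 was at 334.6, Flt1 at 244.6, Abcb1a at 191.3 and Pecam1 at 149.0 per kilobase. The lowest were the junction gene Cdh5 at 102.8 and the receptor genes Tek at 80.1 and Kdr at 72.77. Flt1 thus lay above the transporter gene Abcb1a, and the other 2 receptor genes below all transporters. On the scale of normalized counts no value of the 10 genes was below 292.5 in any library.

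**Figure D1:**
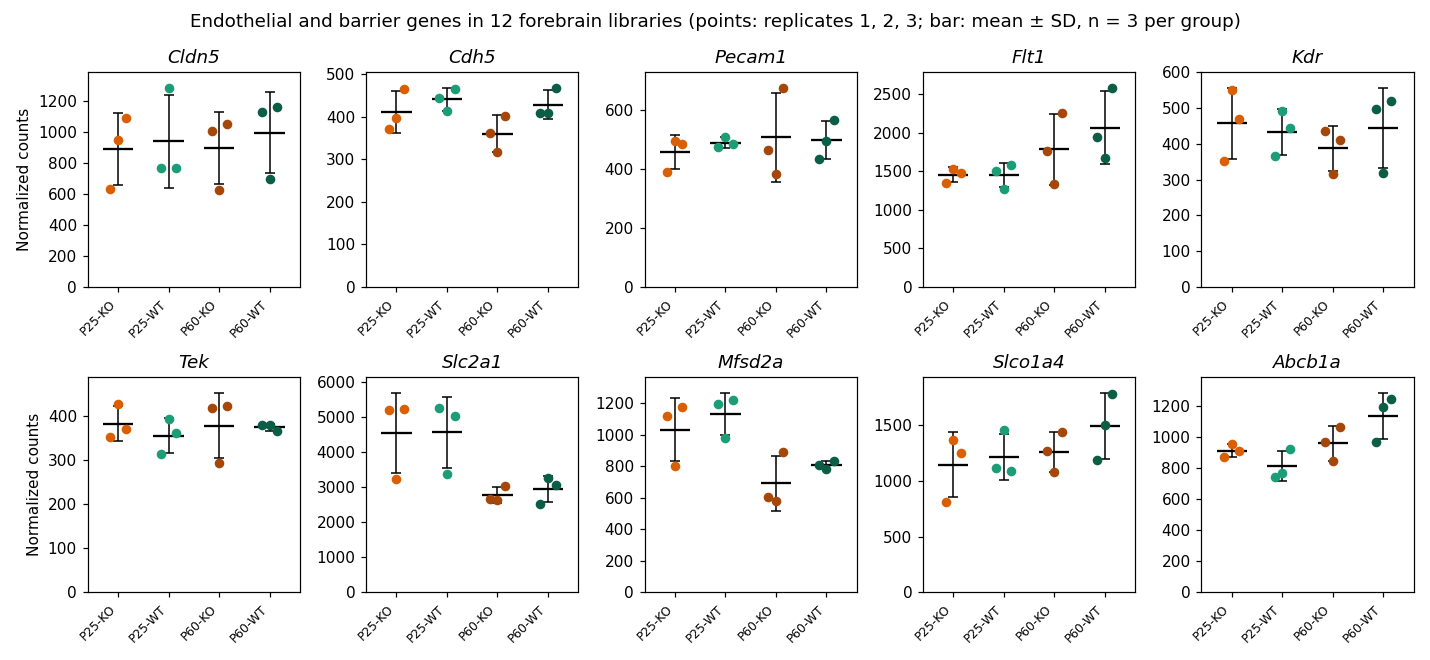
Normalized counts of the 10 endothelial and barrier genes (vertical axes, linear, each with its own scale from 0) in the 4 groups (horizontal axes). Points are libraries (replicates 1, 2 and 3 from left to right) and bars the mean ± SD of 3. Slc2a1 and Mfsd2a had lower group means at P60 in both genotypes (for Slc2a1 the difference in WT missed the threshold), and P60-KO replicate 2, the middle point of its group, was the lowest of that group in every panel.

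Cldn5 (chr16:18776847-18778262, plus strand), the tight junction gene, was at 632.5, 945.4 and 1091 normalized counts in the P25-KO libraries and at 767.6, 1285 and 767.1 in the P25-WT libraries. At P60 it was at 1007, 627.7 and 1051 in the KO libraries and at 1128, 693.8 and 1164 in the WT libraries. Each group held libraries near the bottom and near the top of the range, so all groups overlapped, and the spread within a group (SD from 232.7 to 298.9) was larger than any difference between group means. Cdh5 (chr8:104101625-104144511, plus strand) encodes VE-cadherin, the adhesion protein of endothelial adherens junctions. It was at 370.7, 397.1 and 465.4 in the P25-KO libraries, at 444.6, 413.5 and 465.9 in the P25-WT libraries, at 361.4, 317.2 and 403.3 in the P60-KO libraries and at 409.7, 409.1 and 468.5 in the P60-WT libraries. The 3 P60-KO libraries lay below the 3 P60-WT libraries with no overlap, the nearest being 403.3 and 409.1, whereas the P25 groups overlapped. Pecam1 (chr11:106654217-106750628, minus strand) encodes CD31, an adhesion molecule of endothelial cell contacts. It was at 391.4, 496.1 and 484.9 in P25-KO, at 475.2, 510.8 and 484.9 in P25-WT, at 464.8, 384.7 and 677.0 in P60-KO and at 435.9, 497.2 and 567.0 in P60-WT. The P60-KO libraries held both the lowest and the highest value of the 12.

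The receptors came next. Flt1 (chr5:147561604-147726011, minus strand) encodes VEGF receptor 1, which binds VEGF-A and placental growth factor and also exists as a soluble decoy form. It was at 1343, 1529 and 1482 normalized counts in the P25-KO libraries, at 1497, 1275 and 1576 in P25-WT, at 1762, 1330 and 2252 in P60-KO and at 1946, 1667 and 2580 in P60-WT. All 3 P60-WT libraries lay above all 6 P25 libraries, while P60-KO replicate 2 lay within the P25 range. Kdr (chr5:75932827-75978458, minus strand) encodes VEGF receptor 2, the main signalling receptor for VEGF-A in endothelium. It was at 352.6, 550.4 and 469.9 in P25-KO, at 365.5, 491.5 and 445.1 in P25-WT, at 435.2, 315.6 and 412.3 in P60-KO and at 498.3, 317.4 and 519.4 in P60-WT. All groups overlapped, and replicate 2 was the lowest of both P60 groups. Tek (chr4:94739289-94874976, plus strand) encodes TIE2, the receptor for angiopoietins. It was at 351.6, 427.1 and 369.6 in P25-KO, at 313.0, 393.5 and 360.6 in P25-WT, at 418.0, 292.5 and 424.0 in P60-KO and at 378.8, 378.9 and 365.9 in P60-WT. The groups overlapped, and the P60-WT libraries were close to each other and inside the range of the P60-KO libraries.

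The transporters held the largest differences. Slc2a1 (chr4:119108711-119137983, plus strand) encodes GLUT1, which carries glucose across the barrier. It was at 5181, 3225 and 5207 normalized counts in the P25-KO libraries, at 5247, 3380 and 5025 in P25-WT, at 2641, 2638 and 3035 in P60-KO and at 2517, 3240 and 3050 in P60-WT. Within each genotype every P25 library was above every P60 library, and replicate 2 of both P25 groups stood far below its 2 group mates. Mfsd2a (chr4:122946850-122961188, minus strand) encodes a carrier of lysophosphatidylcholine with docosahexaenoic acid, and its protein keeps transcytosis low in brain endothelium. It was at 1116, 803.9 and 1174 in P25-KO, at 1193, 978.8 and 1223 in P25-WT, at 606.1, 577.9 and 890.5 in P60-KO and at 809.9, 780.1 and 833.1 in P60-WT. The WT groups of the 2 ages did not overlap, and in KO P60-KO replicate 3 lay above P25-KO replicate 2.

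Slco1a4 (chr6:141805440-141856199, minus strand) encodes an organic anion transporting polypeptide of the barrier. It was at 814.6, 1370 and 1251 normalized counts in P25-KO, at 1113, 1455 and 1085 in P25-WT, at 1266, 1079 and 1436 in P60-KO and at 1191, 1506 and 1784 in P60-WT. The groups overlapped, with the lowest value in P25-KO replicate 1 and the highest in P60-WT replicate 3. Abcb1a (chr5:8660077-8748575, plus strand) encodes P-glycoprotein, the efflux pump that limits entry of many drugs. It was at 872.5, 955.2 and 911.7 in P25-KO, at 746.7, 768.2 and 925.4 in P25-WT, at 969.2, 844.7 and 1066 in P60-KO and at 969.5, 1193 and 1250 in P60-WT. All 3 P60-WT libraries lay above all 6 P25 libraries, and the KO groups of the 2 ages overlapped. Of all words of 31 bases in the Abcb1a transcripts, 23.3% also occur in other genes, mostly its near copy Abcb1b, and for Slco1a4 the share was 5.03%, mostly with Slco1a5, so how the authors' quantification divided reads between these copies leaves both values uncertain. When the 4 groups were put in the order of their means, no pair of neighbours was separated without overlap for any of the 10 genes.

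The first comparison was that of ages. Slc2a1 and Mfsd2a were lower at P60, Flt1 and Abcb1a were higher at P60, and the other 6 genes did not pass the test. Over both genotypes (6 P60 against 6 P25 libraries, with genotype in the model), Slc2a1 was at 2853 ± 291.8 normalized counts at P60 and at 4544 ± 965.8 at P25 (SD, n = 6), a log2 fold change of -0.65 ± 0.13 (SE) with an adjusted p of 0.0013 by limma with Benjamini-Hochberg adjustment. Mfsd2a was at 749.6 ± 127.6 against 1081 ± 161.1 (SD, n = 6), a log2 fold change of -0.53 ± 0.11 (limma, adjusted p = 0.00218). In fold terms Slc2a1 was at 0.639 and Mfsd2a at 0.692 of the P25 level. Flt1 was at 1923 ± 443.6 against 1450 ± 115.9 (SD, n = 6), a log2 fold change of 0.38 ± 0.12 (limma, adjusted p = 0.0249). Abcb1a was at 1049 ± 152.4 against 863.3 ± 86.45 (SD, n = 6), a log2 fold change of 0.27 ± 0.10 (limma, adjusted p = 0.0347). Fold changes are on the scale of log2(value + 1), which hardly matters at these levels.

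Thus 4 of the 10 genes were called, against 37.6% of the 17594 genes tested, and a count of that size is near the background. The 2 genes that rose compare with 18.3% of all genes called higher, and the 2 that fell with 19.3% called lower. That split over all genes (3219 higher and 3397 lower) depended on scaling, with 4038 higher and 2730 lower when libraries were scaled to the same total, and all 4 calls of the 10 genes had the same direction under that scaling. The median log2 fold change of the 10 genes was 0.04, beside 0.004 over all genes. For none of the 10 did the 6 P60 and 6 P25 libraries separate without overlap, while 19.6% of all genes did so. The 6 genes without a call were Slco1a4 (log2 fold change 0.23, limma adjusted p = 0.194), Cdh5 (-0.12, limma adjusted p = 0.28), Kdr (-0.11), Pecam1 (0.07), Cldn5 (0.05) and Tek (0.02). The 95% interval of the difference ran from -0.34 to 0.44 for Cldn5, from -0.29 to 0.06 for Cdh5 and from -0.18 to 0.23 for Tek, so differences within those bounds cannot be told from none.

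**Figure D2:**
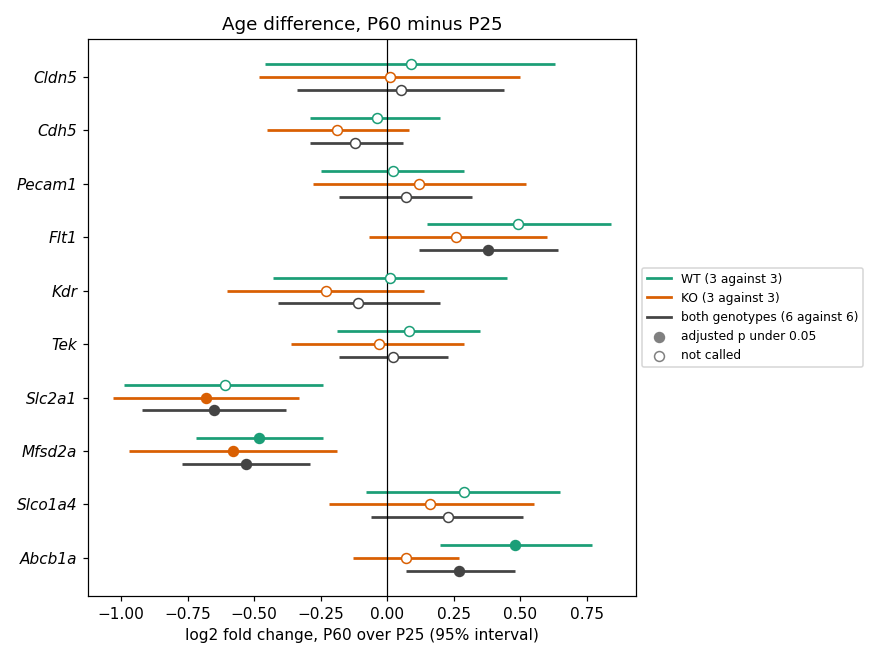
Log2 fold change of P60 over P25 (horizontal axis) with its 95% interval for each gene, in WT, in KO (3 against 3 libraries each) and over both genotypes (6 against 6). Filled points passed an adjusted p of 0.05 by limma. The intervals of Slc2a1 and Mfsd2a lie below 0 in all 3 comparisons, and those of Cldn5, Cdh5, Pecam1, Kdr, Tek and Slco1a4 cross 0 in all 3.

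Within WT alone, Mfsd2a (log2 fold change -0.48 ± 0.11, limma adjusted p = 0.0299) and Abcb1a (0.48 ± 0.13, limma adjusted p = 0.0483) were called, 2 of 10 genes where the share over all genes was 8.65% (3.66% higher and 4.99% lower, or 991 genes higher and 681 lower in place of 644 and 877 with libraries scaled to the same total). Slc2a1 (-0.61 ± 0.16, limma adjusted p = 0.0509) and Flt1 (0.49 ± 0.15, limma adjusted p = 0.0768) missed the threshold. These 4 genes did not overlap between the ages in WT, which 36.0% of all genes did not either. Within KO alone, Slc2a1 (-0.68 ± 0.16, limma adjusted p = 0.0146) and Mfsd2a (-0.58 ± 0.18, limma adjusted p = 0.0408) were called, 2 of 10 beside 20.7% of all genes (9.37% higher and 11.3% lower, or 2108 genes and 1620 in place of 1649 and 1992 with that scaling). Flt1 (0.26 ± 0.15, limma adjusted p = 0.244) and Abcb1a (0.07 ± 0.09, limma adjusted p = 0.64) were not called in KO. Slc2a1 alone of the 10 did not overlap between the ages in KO, against 39.4% of all genes. A call in one genotype and not in the other does not show that the genotypes differed, and the test of that difference is given with the genotype comparisons.

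The calls were not equally firm. Over both genotypes, Slc2a1 and Mfsd2a were called in all 21 alternative fits, with log2 fold changes from -0.86 to -0.59 and from -0.67 to -0.47. Flt1 was called in 17 of 21, and limma's adjusted p was 0.0642 when P60-KO replicate 3 was left out and 0.0599 when P60-WT replicate 3 was, its 2 highest libraries. Abcb1a was called in 14 of 21, and its adjusted p by limma was 0.05 without P25-KO replicate 1, 0.084 without P25-WT replicate 1, 0.0639 without P25-WT replicate 2, 0.0687 without P60-KO replicate 3, 0.0799 without P60-WT replicate 2 and 0.0887 without P60-WT replicate 3. Leaving out both P25 replicates 2, which was decided after the data were seen, gave log2 fold changes of -0.86 for Slc2a1 and -0.67 for Mfsd2a, an adjusted p of 0.0525 for Flt1 and a call of Slco1a4 (0.37, limma adjusted p = 0.0372). Within 1 genotype, most calls were lost when a single library was left out, with log2 fold changes of like size. In WT the Mfsd2a call was lost without P25-WT replicate 1 or any 1 of the P60-WT libraries (log2 fold change -0.50 to -0.44, limma adjusted p from 0.0898 to 0.116), the Abcb1a call without any 1 library but P25-WT replicate 3 (0.41 to 0.59, adjusted p from 0.0506 to 0.195), and Slc2a1 gained a call without P25-WT replicate 2 (-0.81, adjusted p = 0.0016 by limma). Calls over all genes in WT fell from 1521 to between 122 and 375 without P25-WT replicate 1 or any 1 of the P60-WT libraries. In KO the Slc2a1 call was lost without P25-KO replicate 1 or 3 (-0.57 and -0.56, limma adjusted p = 0.0526 and 0.0559), the Mfsd2a call without any 1 of P25-KO replicates 1 and 3 and P60-KO replicates 1 and 2 (-0.52 to -0.47, adjusted p from 0.115 to 0.136), and Flt1 gained a call without P60-KO replicate 2 (0.46, adjusted p = 0.0203 by limma).

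**Figure D3:**
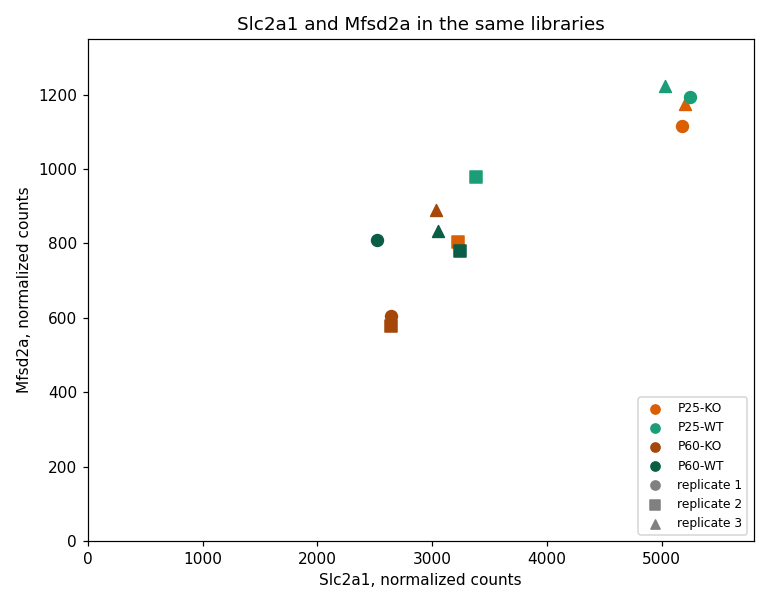
Normalized counts of Slc2a1 (horizontal axis) and Mfsd2a (vertical axis) in the 12 libraries, with groups by colour and replicate numbers by symbol. The other 4 P25 libraries lie together at the upper right, and replicate 2 of each P25 group lies apart from them at 3225 and 3380 for Slc2a1.

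Slc2a1 and Mfsd2a also followed each other from library to library. Pearson's r of their log2 values was 0.893 over the 12 libraries and 0.765 after each value was centred on its group's mean, and each was the nearest of the other 9 genes to its partner by both measures. In P25-KO replicate 2 and P25-WT replicate 2 both genes were the lowest of their group, while the other 8 genes were on average 0.08 and 0.06 above their mean on the log2 scale in those libraries. Slc2a1 had a negative r within groups with Cldn5 (-0.45), Kdr (-0.56) and Tek (-0.41). Cldn5 and Kdr formed another close pair, with r = 0.83 over the 12 libraries and 0.87 within groups, and Cdh5 and Flt1 had r = 0.34 over the libraries but 0.82 within groups. These values are descriptions over 12 libraries in 4 groups that share age and genotype, and they carry no test.

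The second comparison was that of genotypes, the one the study was made for. None of the 10 genes was called in KO against WT at P25 (0.00571% of 17515 genes called), at P60 (0.00568% of 17610) or over both ages (0.00568% of 17594), and in each case the 1 gene called by limma was Shank3. The study's own DESeq2 test had small sets of further genes at each age, among them Ccdc40 at both. The log2 fold change of Shank3 was -1.06 ± 0.09 at P25 (limma, adjusted p = 0.0134) and -0.99 ± 0.07 at P60 (limma, adjusted p = 0.0022). At P25 the Shank3 call was lost without P25-KO replicate 1 (-1.02, limma adjusted p = 0.246) or replicate 2 (-1.02, limma adjusted p = 0.201), which left no gene called. The count over all genes at P25 was 2 without P25-KO replicate 3 and 8 without P25-WT replicate 1, and at P60 it was 3 without P60-KO replicate 1 and 2 without P60-WT replicate 1, all including Shank3. At an unadjusted p under 0.05, limma had 238 genes at P25 with 0 of the 10 among them, 440 at P60 with 1 of the 10, and 361 over both ages with 1 of the 10.

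At P25 the log2 fold changes of the 10 genes ran from -0.15 for Mfsd2a to 0.17 for Abcb1a, with 6 below 0 and 4 above it and a median of -0.04, beside -0.008 over all genes. The KO and WT groups overlapped for all 10, where 4.76% of all genes did not overlap. At P60 all 10 log2 fold changes were below 0, with a median of -0.20 beside 0.0 over all genes. They ran from -0.01 for Pecam1 and Tek to -0.25 for Mfsd2a and Cdh5, with Slco1a4 and Abcb1a at -0.24, Flt1 at -0.22, Kdr at -0.18, Cldn5 at -0.15 and Slc2a1 at -0.08. For Pecam1 and Tek the group means of the normalized counts went the other way. Pecam1 was at 508.8 in P60-KO against 500.0 in P60-WT, and Tek at 378.1 against 374.6. The groups did not overlap for Cdh5, 1 of 10 where 7.79% of all genes did not, and its log2 fold change was -0.25 ± 0.11 (limma, unadjusted p = 0.0468 and adjusted p = 1.0). For Mfsd2a the 95% interval at P60 ran from -0.58 to 0.08 and for Abcb1a from -0.50 to 0.01, so a lowering by those amounts was not excluded by these libraries. Over both ages Cdh5 was again the only one of the 10 with an unadjusted p under 0.05 (-0.18 ± 0.08, limma, unadjusted p = 0.0404 and adjusted p = 1.0). The median over both ages was -0.08 beside -0.004 over all genes, with 9 of the 10 below 0. It was -0.01 without P60-KO replicate 2, where Pecam1 (0.02), Kdr (0.02) and Abcb1a (0.03) turned above 0. Without P60-WT replicate 3 it was -0.02, where Kdr (0.01) and Abcb1a (0.02) did. It was -0.06 without P25-KO replicate 1, where Kdr (0.01) did, and -0.16 without P60-KO replicate 3. At P25 the median was 0.09 without P25-KO replicate 1, with 3 of the 10 below 0 and Cldn5 at 0.16, Slco1a4 at 0.12 and Pecam1 at 0.0.

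For 3 of the 10 genes the direction at P60 depended on single libraries. Without P60-KO replicate 2 the log2 fold changes were 0.09 for Cldn5, 0.17 for Pecam1 and 0.17 for Tek, and between -0.17 (Cdh5) and -0.03 (Flt1) for the other 7, with a median of -0.04 beside 0.003 over all genes. Without P60-WT replicate 3 the median at P60 was -0.05 and 9 of the 10 were below 0, and without P60-KO replicate 3 it was -0.30 and all 10 were below 0. Without P60-KO replicate 2, Cdh5 had an unadjusted p of 0.173 at P60 by limma and, over both ages, a log2 fold change of -0.13 ± 0.08 (limma, unadjusted p = 0.11 and adjusted p = 1.0), so that none of the 10 was under 0.05. The same held without P60-WT replicate 3, where Cdh5 had 0.162 at P60 and 0.104 over both ages. Without P60-KO replicate 3, 3 of the 10 had an unadjusted p under 0.05 at P60, Mfsd2a (-0.45, limma, adjusted p = 0.768), Cdh5 (-0.34) and Abcb1a (-0.32, both with an adjusted p of 0.941 by limma). Pecam1 was also above 0 without P60-KO replicate 1 (0.04) and without P60-WT replicate 3 (0.09). In P60-KO replicate 2 the 24 other endothelial identity genes were the lowest of their group in 70.8% of cases, the 17 junction genes in 70.6%, the 21 barrier transport genes in 52.4% and the 7 smooth muscle genes in all cases, beside 33.7% over all genes. The share was 33.3% for VEGF, angiopoietin and Notch genes, 38.9% for Wnt genes and 37.5% for caveolae, fenestration and adhesion genes. Of the other cell types' markers, 6 of 8 astrocyte genes were also the lowest of their group there (75%), 4 of 12 pericyte genes (33.3%), 2 of 6 choroid plexus genes, and 2 of 8 each of the fibroblast, microglia and oligodendrocyte genes. In the opposite direction, 5 of 8 neuron genes, 5 of 8 fibroblast genes, 4 of 8 oligodendrocyte genes and 4 of 5 red blood cell genes were the highest of their group in that library, and no neuron or red blood cell gene was the lowest. The summed endothelial identity genes were lowest there at 8488, beside 9614 to 11630 in the P60-WT libraries. Some of these shares were also high in WT libraries. In P60-WT replicate 2 the junction genes were the lowest of their group in 70.6% of cases, all 8 astrocyte genes were, and endothelial identity genes were in 29.2%. In P60-WT replicate 1, 5 of 7 smooth muscle genes and 54.2% of endothelial identity genes were the lowest, but 17.6% of junction genes. The part of other properties of P60-KO replicate 2 in its low values was not tested.

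**Figure D4:**
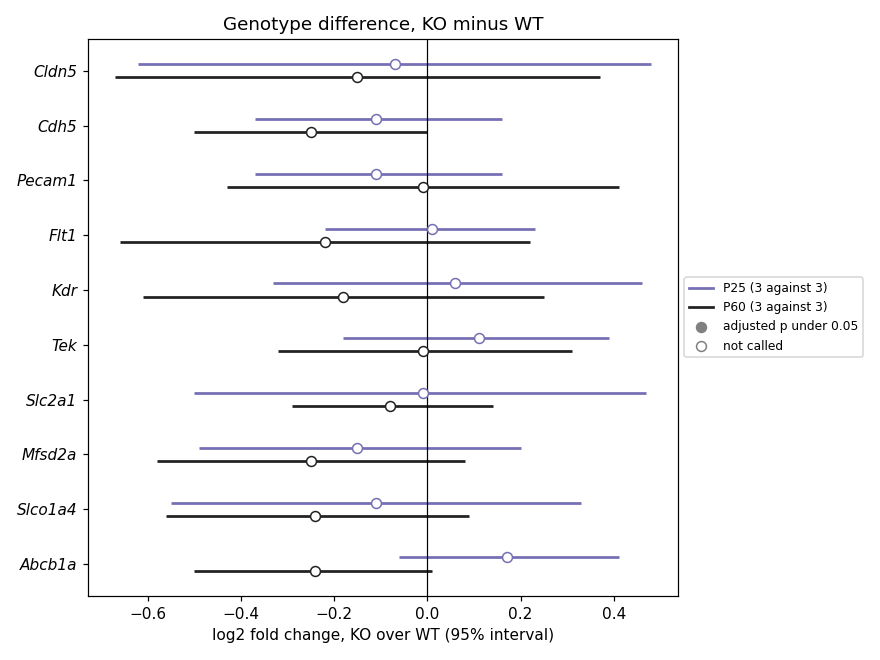
Log2 fold change of KO over WT (horizontal axis) with its 95% interval for each gene at P25 and at P60 (3 against 3 libraries each). No gene passed an adjusted p of 0.05, so all points are open. At P60 all 10 points lie at or below -0.01.

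The interaction asks whether the KO against WT difference changed between the ages. It was called for none of the 10 genes and for 0.0% of the 17594 tested, while 288 genes had an unadjusted p under 0.05 by limma. Abcb1a was the 1 of the 10 among these, with a difference of log2 fold changes of -0.41 ± 0.16 (limma, unadjusted p = 0.024 and adjusted p = 1.0). Without P60-KO replicate 2 it was -0.33 ± 0.16 (limma, unadjusted p = 0.0699 and adjusted p = 1.0). It was -0.49 ± 0.17 without P60-KO replicate 3 (limma, unadjusted p = 0.0118) and -0.45 ± 0.18 without P25-KO replicate 1 (limma, unadjusted p = 0.0278), without a call in either. Its KO libraries were above WT at P25 by 0.17 and below WT at P60 by 0.24 on the log2 scale, and the 95% intervals of both differences included 0. For the other 9 genes the interaction ran from -0.24 (Kdr) to 0.10 (Pecam1), and the median of the 10 was -0.12. Without P60-KO replicate 2 the median was -0.03, Cldn5 moved from -0.08 to 0.16, Tek from -0.11 to 0.06, Pecam1 from 0.10 to 0.28 and Kdr from -0.24 to -0.10, and Mfsd2a was at 0.01. The median was -0.07 without P60-WT replicate 3, where Abcb1a was at -0.34 (limma, unadjusted p = 0.0672 and adjusted p = 1.0). In the same fit Cldn5 was at 0.05 and Slco1a4 at 0.01. The median was -0.25 without P25-KO replicate 1, where Slc2a1 was at 0.05 and Pecam1 at -0.01. Without P60-KO replicate 3 the median was -0.23, with Pecam1 at -0.13.

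The genes with the profile most like that of the 10 were found by correlation. When 12936 genes were ranked by Pearson's r with the mean log2 profile of the 10, the first 8 over the 12 libraries were Nos3 (0.932), Il4ra, Esam, Adgrl4, Zbtb43, Slco1c1, Lsr and Aldh7a1 (0.833). Nos3 encodes the endothelial nitric oxide synthase, Esam an endothelial adhesion molecule, Slco1c1 a thyroid hormone carrier of the barrier and Lsr a protein of tricellular junctions. After centring within groups the first 8 were Cyyr1 (0.954), Lsr, Zfp760, Wwtr1, Acta2, Esam, Ipcef1 and Nos3 (0.919). Esam, Lsr and Nos3 stood in both rankings. For single genes, the nearest gene outside the 10 over the 12 libraries was Rin3 for Slc2a1 (r = 0.973), St6galnac2 for Abcb1a (0.950), Slc39a10 for Flt1 (0.938), Fzd1 for Mfsd2a (0.931), S1pr1 for Cldn5 (0.911), Podxl for Pecam1 (0.907), Esam for Cdh5 (0.891), Tbccd1 for Slco1a4 (0.890), Ets1 for Kdr (0.885) and Trim21 for Tek (0.795). After centring within groups none of these but Podxl for Pecam1 (0.950) was again the nearest. These rankings carry no test.

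Other genes of the endothelium and the barrier were read from lists by role, over both genotypes and with the same limma fit. Of 24 endothelial identity genes, 5 were lower at P60 and none higher (20.8% called, median log2 fold change -0.14). The leading ones were Ramp2, a subunit of the adrenomedullin receptor (371.5 ± 33.75 at P60 against 529.2 ± 56.29 at P25, SD, n = 6, log2 fold change -0.51, limma adjusted p = 0.000377), Vwf, the von Willebrand factor (-0.60, limma adjusted p = 0.00448), and Rasip1, a regulator of vessel lumen formation (-0.27, limma adjusted p = 0.0189). Of 17 junction genes 2 were higher and 2 lower (23.5% called, median 0.01), with the tight junction protein gene Cgn at 0.48 (limma adjusted p = 0.000239) and the adhesion molecule gene Jam3 at -0.38 (limma adjusted p = 0.000279), while Ctnna1 was at 0.29 and Cldn1 at -0.35. Both shares were below the 37.6% called over all genes.

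Of 21 transport genes 5 were higher and 5 lower (47.6% called, beside 37.6% over all genes, median -0.03). The lower ones were led by carriers of nutrients, namely Slc16a1, the monocarboxylate carrier MCT1 (959.7 ± 73.88 at P60 against 1434 ± 134.5 at P25, SD, n = 6, log2 fold change -0.58, limma adjusted p = 2.74e-05), and Slc7a5 and Slc3a2, which form the large neutral amino acid carrier (-0.47 and -0.31, limma adjusted p = 3.04e-05 and 5.3e-05). The higher ones were led by the receptors Lrp8 (0.44) and Insr (0.23) and by Abcb1b, the near copy of Abcb1a (101.6 ± 23.51 against 63.12 ± 21.28, SD, n = 6, log2 fold change 0.71, limma adjusted p = 0.0161). The carriers Slc39a10 (0.23) and Slc6a6 (0.15), named here after their values were seen, were also higher, and the carriers Slc22a8 (-0.40) and Slc38a5 (-0.71), likewise, were lower. Because Abcb1a and Abcb1b share sequence, their values are not independent. Many of these genes are also expressed by neurons, glia or choroid plexus.

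Of 18 genes of VEGF, angiopoietin and Notch signalling, 2 were higher and 4 lower (33.3% called, below the 37.6% over all genes, median -0.09). Vegfa, the ligand of Flt1 and Kdr, was at 2292 ± 274.6 at P60 against 1824 ± 174.6 at P25 (SD, n = 6, log2 fold change 0.33, limma adjusted p = 0.00771), and the VEGF co-receptor gene Nrp2 was at 0.22. Pgf, the placental growth factor that Flt1 also binds, was at 52.11 ± 12.75 at P60 against 81.41 ± 15.4 at P25 (SD, n = 6, log2 fold change -0.65, limma adjusted p = 0.0123), and it was added after its values were seen. Aplnr, the apelin receptor of growing vessels, was at 13.19 ± 8.469 against 46.15 ± 7.676 (SD, n = 6, log2 fold change -1.88, limma adjusted p = 0.000204), Notch4, an endothelial Notch receptor, at -0.99, and Hey1, a Notch target, at -0.19. Of 18 genes of Wnt and beta-catenin signalling, 3 were higher and 6 lower (50% called, beside 37.6% over all genes, median -0.04). Apcdd1, a Wnt target in barrier endothelium, was at -0.67 (limma adjusted p = 4.85e-06), Ctnnb1, beta-catenin itself, at -0.32 and Nkd1, a Wnt target and inhibitor, at -0.62, whereas the Wnt7 co-receptor gene Reck was at 0.33, the Wnt co-receptor gene Lrp6 at 0.23 and Foxq1 at 0.38. Of 8 measured genes of caveolae, fenestration and leukocyte adhesion, 1 was lower (12.5%), the chemokine receptor gene Ackr1 at -0.46 (limma adjusted p = 5.41e-05).

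**Figure D5:**
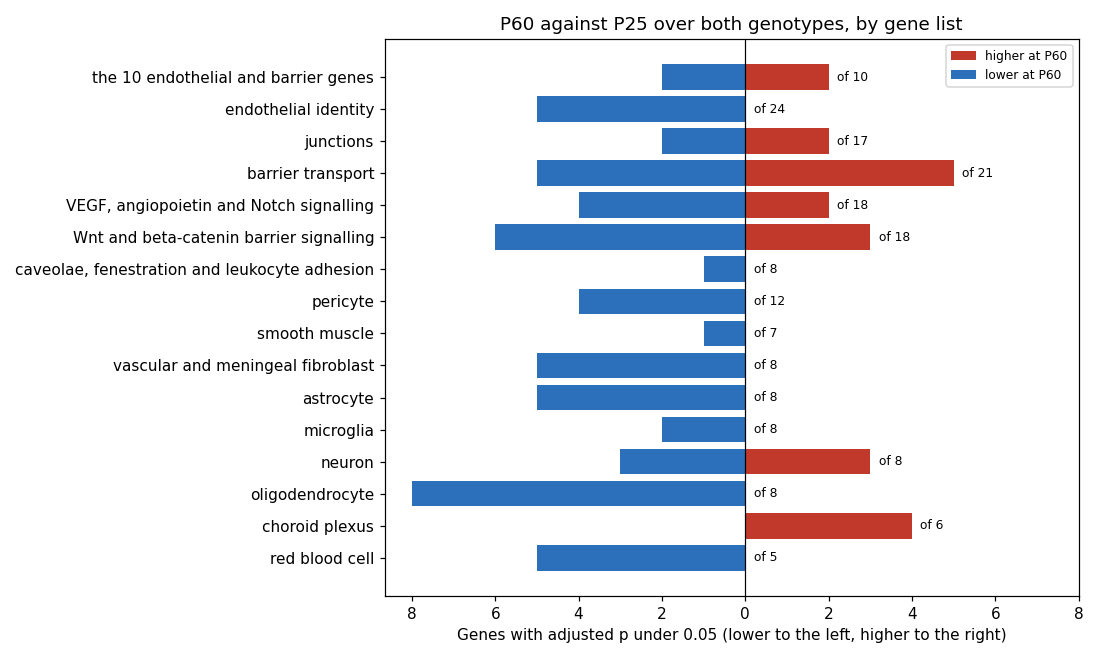
Number of genes in each list (rows) with an adjusted p under 0.05 by limma in P60 against P25 over both genotypes, lower at P60 to the left and higher to the right, with the number of genes tested beside each bar. All 8 oligodendrocyte and all 5 red blood cell genes were lower at P60, and the 24 endothelial identity genes had 5 lower and none higher, while junction, transport, VEGF and Wnt genes were called in both directions.

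Markers of other cells moved with age in the same libraries, and their part in the age differences above was not tested. Over all genes 37.6% were called, 18.3% higher and 19.3% lower. Of 12 genes listed as pericyte markers 4 were lower (33.3%, median -0.24), led by Cspg4 (-0.67), Rgs5 (-0.53) and Ndufa4l2 (-0.52). The other 8 were not called and ran from -0.34 (Higd1b) to 0.05 (Abcc9), with Pdgfrb at -0.05. The summed values of the list were 7055 to 7858 at P60 and 8730 to 9956 at P25. Among smooth muscle genes 1 of 7 was lower (Tpm2, -0.24), and among fibroblast genes 5 of 8, led by Col1a1 (-1.21), Col1a2 (-0.97) and Igf2 (-0.83). Astrocytes, whose endfeet cover the vessels, had 5 of 8 genes lower (median -0.26), led by Gfap (-0.49), Slc1a2 (-0.30) and Gja1 (-0.28). All 8 oligodendrocyte genes were lower (median -1.28), led by Cldn11 (-1.32) and Mag (-1.29), and all 5 red blood cell genes were lower (median -1.99), with Hba-a1 at -2.21, Hba-a2 at -1.99 and Hbb-bs at -2.07, the globin copies being near-identical. Microglia had 2 of 8 genes lower (C1qa, -0.29 and Tmem119, -0.26). The neuronal list had 3 genes higher (Snap25, 0.27, Gad2, 0.20 and Gad1, 0.17) and 3 lower (Tubb3, -0.50, Slc17a7, -0.33 and Stmn2, -0.34). Choroid plexus had 4 of 6 higher, led by Kl (0.62), Clic6 (0.32) and Otx2 (0.32). No gene of any list was called between the genotypes at either age or over both.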

How the data were processed

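Forebrain RNA of 12 mice (3 per genotype and age) was prepared with a TruSeq RNA v2 kit and sequenced. The authors estimated transcript abundance in Salmon (corrected for GC bias), passed it to R through tximport and used DESeq2 for normalization, as the study's methods state. The submitters' processing notes name Salmon 1.1.0, R 3.6.2, DESeq2 1.26.0 and GRCm38, while the methods name other R and DESeq2 versions. The transcriptome release and the strand setting are not given in the sources used here. It is therefore unknown whether reads of overlapping genes (Gm29682 opposite Cdh5, Gm12867 and Gm12868 opposite Slc2a1, Gm42686 opposite Abcb1a) were told apart. On the same strand, Mir1957a overlaps Slc2a1 and Gm42684 overlaps Abcb1a.

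The deposited values are signal on a count scale (normalized counts), not whole reads. After that normalization the highest library total was 5.82% above the lowest, so totals do not give depth, and precision rests on replicates. Ensembl identifiers were matched to GENCODE M21 (19252 of 19268). Groups and replicate numbers came from the titles. The 10 genes and the gene lists were chosen with earlier results of these data known.

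Values were tested as log2(value + 1) with limma 3.58.1 (R 4.3.3, intensity trend), in place of a count test, over all genes with a mean of at least 10 in the libraries fitted, with Benjamini-Hochberg adjustment over all of them and a threshold of 0.05. Genotypes were compared at each age, ages within each genotype, and both in additive and interaction models. The fits were tested on simulated data. Alternatives changed the pseudocount (0.5, 5), the filter (none, 50), the scaling, the trend, the replicate block and the libraries. Named were all 10 genes, Shank3, up to 3 genes per direction and list with the smallest adjusted p in the age comparison, the 8 genes most like the mean of the 10 among genes with a mean of at least 50, and nearest genes. One gene that this rule names is not reported here. Each list is given by its counts and median. P-values measure the spread between these mice.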

Additional observations from a re-analysis of the deposited data

How the results depend on the processing

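None of the 10 genes was called between the genotypes, or for the interaction, under any alternative run. The number called between the ages moved under some. In WT it was 2, with 1 under no filter on low values, 0 under no intensity trend, 3 with the replicate block (which added Flt1, adjusted p = 0.0259 by limma), 3 with a minimum mean of 50 (which added Slc2a1, 0.0466), and 0 to 2 without single libraries. With all 12 libraries in the fit it was 2, with Slc2a1 called (0.0343) and Mfsd2a not (0.055). In KO it was 2, with 0 under no intensity trend and 0 to 2 without single libraries. Over both genotypes it was 4, with 2 under no intensity trend and 2 to 4 without single libraries. Over all genes the calls in WT were 1521, with 192 under no intensity trend and 3439 with all 12 libraries in the fit, and 122 to 2403 without single libraries. In KO they were 3641, with 1725 under no intensity trend and 2093 to 3230 without single libraries. No label states that the replicate numbers pair the mice. Correlations of same-numbered libraries ran from -0.072 to 0.166, never all 3 above 0.1, and whether such libraries share a litter or batch is unknown. The block changed no other call of the 10 genes. It ended the call of Shank3 at P25 (-1.06, adjusted p = 0.261 by limma), as did no intensity trend at P25 (0.412) and at P60 (0.185).

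Some differences that were not called changed sign. With both P25 replicates 2 left out together, KO against WT at P25 was 0.11 for Cldn5, -0.12 for Flt1 and 0.02 for Slc2a1 (log2), P60 against P25 in KO was 0.05 for Tek, and over both genotypes it was 0.01 for Kdr. With libraries scaled to the same total, Cdh5 was 0.01 in WT. Without single libraries, KO against WT at P25 ran from -0.24 to 0.18 for Cldn5, -0.08 to 0.07 for Flt1, -0.08 to 0.24 for Kdr, -0.21 to 0.22 for Slc2a1, -0.25 to 0.02 for Mfsd2a and -0.26 to 0.12 for Slco1a4. At P60 it ran from -0.39 to 0.09 for Cldn5, -0.23 to 0.17 for Pecam1 and -0.10 to 0.17 for Tek. P60 against P25 in WT ran from -0.04 to 0.34 for Cldn5, -0.07 to 0.12 for Pecam1, -0.12 to 0.24 for Kdr and -0.01 to 0.16 for Tek. In KO it ran from -0.22 to 0.25 for Cldn5, -0.11 to 0.30 for Pecam1, -0.13 to 0.14 for Tek, -0.06 to 0.31 for Slco1a4 and -0.01 to 0.16 for Abcb1a. Over both genotypes it ran from -0.05 to 0.16 for Cldn5, -0.04 to 0.15 for Pecam1 and -0.02 to 0.11 for Tek. The cause was not tested. Depth was not given, so what it limits is unknown.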
